A study of Rattus norvegicus with 13 samples.

Results

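The miRNAs described here are miR-199a-5p, miR-199a-3p and miR-214-3p, 3 of the 460 rat mature miRNAs counted in small RNA libraries from rat kidney. They were chosen by name (rno-miR-199a-5p, rno-miR-199a-3p and rno-miR-214-3p in the table) because they are processed from a shared transcript. The libraries came from 13 female rats of the inbred WAG/RijCmcr strain, which the labels group under Wistar, aged 11 to 12 weeks and weighing about 155 g at irradiation. Control rats (n = 4) received 0 Gy and no drug. The irradiated group (n = 4) was exposed to 320 kVp X-rays, 13 Gy in all at a rate of 1.75 Gy per minute, while a single hind limb was kept outside the beam, a geometry called leg-out PBI, and had no drug. Irradiated rats given lisinopril (n = 5) had the same exposure and drank this inhibitor of angiotensin converting enzyme, starting on day 7, at a daily dose near 24 mg per square metre. The time point is 35 days after exposure for every kidney, and the labels describe early saline injections and the antibiotic enrofloxacin as supportive care without saying which groups had them. The comparisons address the effect of the exposure on kidney miRNAs and that of the drug added to it.

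A microRNA precursor folds into a hairpin from which a 5p and a 3p strand can be cut. The strand loaded into Argonaute pairs with messenger RNAs mainly through its seed, the bases near its 5′ end, and lowers their translation and stability. The miR-199a and miR-214 hairpins lie in Dnm3os, a long noncoding RNA transcribed against the direction of the dynamin gene Dnm3. Dnm3os is active in mesenchymal cells such as fibroblasts and is needed for normal skeletal growth in mice. In fibroblasts it responds to TGF-beta. Among the strands, miR-199a-5p is known to repress caveolin-1 in lung fibroblasts, miR-199a-3p targets mTOR in liver cells, and loss of miR-214 lessened kidney fibrosis after ureteral obstruction in mice.

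The mature sequences, from RefSeq on build GRCr8, are shown 5′ to 3′ with the seed (bases 2 to 8) in capitals, because the seed defines the targets and the base composition bears on the measurements below.
miR-199a-5p: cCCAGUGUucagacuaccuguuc
miR-199a-3p: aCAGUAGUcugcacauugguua
miR-214-3p: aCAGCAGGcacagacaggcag
miR-3120: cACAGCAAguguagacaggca
They lie on chromosome 13 of GRCr8, where miR-199a-5p is at chr13:77116255-77116277, miR-199a-3p at chr13:77116294-77116315 and miR-214-3p at chr13:77121713-77121733, all on the plus strand. Between the end of miR-199a-3p and the start of miR-214-3p there are 5397 bases. All 3 are inside Dnm3 on the strand opposite to that gene. miR-3120, at chr13:77121672-77121692 on the minus strand, is cut from the opposite strand of the miR-214 locus and does not overlap miR-214-3p. Each of the 3 seeds occurs in only 1 of the 693 rat mature miRNAs in the RefSeq table. The seeds of miR-199a-3p and miR-214-3p share 5 of 7 positions, whereas those of the miR-199a strands share 3 of 7 with each other. The GC content is 52.2% for miR-199a-5p, 40.9% for miR-199a-3p and 61.9% for miR-214-3p.

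The miR-214 precursor is shown with miR-214-3p, its bases 69 to 89, in capitals, because this strand had the largest differences from control of the 3.
miR-214 hairpin: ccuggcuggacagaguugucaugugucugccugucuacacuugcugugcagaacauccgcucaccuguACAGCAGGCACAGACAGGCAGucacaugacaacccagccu

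Rat mature miRNA counts totalled 1194175 to 11095939 per library. Control library 2 was the shallowest, where 3 counts, the floor used here, came to 3.19 CPM against 0.289 to 0.561 CPM elsewhere. It also differed in composition, with 29.0% of its miRNA reads in rows named after other species, against 10.3% to 14.6% elsewhere. In it 37 of the 460 rat miRNAs were at 0, against 0 to 3 elsewhere, and its TMM factor of 0.787 was the lowest. CPM are read counts scaled to the usual per-million total after TMM, a trimmed mean over miRNAs, and floors cover counting error only. Kidney epithelial miRNAs (miR-10a-5p, miR-192-5p, miR-194-5p, miR-204-5p, miR-30a-5p and miR-196a-5p) summed to 345548 to 737203 CPM, and none was at 0 in any library. Of the 460 miRNAs, 419 were abundant enough to be tested, including all 3 described here. For each comparison edgeR's quasi-likelihood test gave log2 fold changes with standard errors (SE), and adjusted p-values follow Benjamini and Hochberg over all 419 with a threshold of 0.05. In whole kidney, more or fewer cells of a type and more or less RNA per cell cannot be told apart.

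The 3 strands stood at very different levels. miR-199a-3p was at 1645 to 2696 CPM and ranked 35 to 47 among the 460 rat miRNAs. miR-199a-5p was at 330 to 508 CPM, ranking 77 to 91, and miR-214-3p at 42.5 to 148 CPM, ranking 132 to 186. This order held in each of the 13 libraries with no overlap between strands. The opposite-strand miR-3120 was far lower, at 2.43 to 6.61 CPM from 4 to 67 reads.

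For miR-199a-5p the control kidneys held 376, 373, 340 and 350 CPM in rats 1 to 4. Irradiated kidneys without the drug held 343, 330, 357 and 400 CPM. Kidneys of lisinopril-treated rats held 413, 466, 418, 508 and 466 CPM. Control and irradiated kidneys overlapped throughout, whereas all 5 treated rats lay above every rat of both other groups. For miR-199a-3p the controls held 2084, 2344, 2017 and 1880 CPM. Irradiated kidneys held 2091, 1645, 1956 and 2564 CPM, a range that contains all 4 controls. With lisinopril the values were 2435, 2579, 2276, 2472 and 2696 CPM, of which 4 lay above all controls and 2 above all irradiated rats without the drug.

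For miR-214-3p the controls held 42.5, 47.9, 57.9 and 49.2 CPM, from 330, 45, 601 and 417 reads. Irradiated kidneys held 65.8, 148, 75.8 and 64.5 CPM. Kidneys with lisinopril held 63.6, 80.3, 78.5, 76.6 and 70.8 CPM. All 9 irradiated rats, with or without the drug, lay above all 4 controls. The irradiated groups overlapped each other, and irradiated library 2 stood far above the rest.

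**Figure D1:**
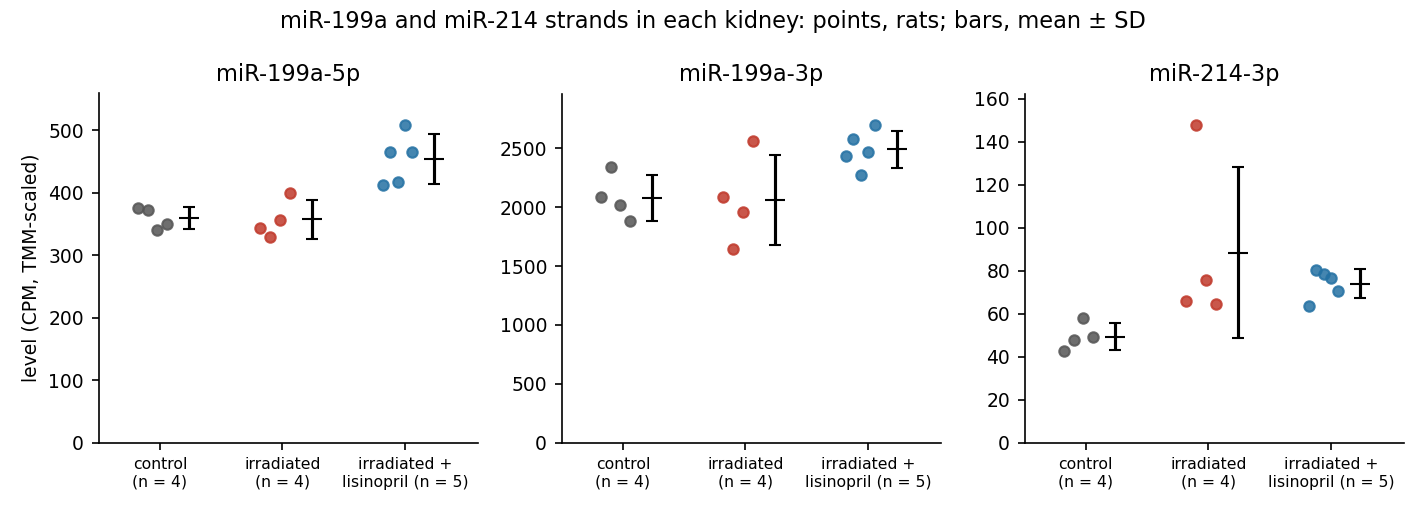
Levels in CPM (linear axes from 0) of miR-199a-5p, miR-199a-3p and miR-214-3p in the 13 kidneys, where points are rats and bars the mean ± SD of each group (n = 4 control, n = 4 irradiated, n = 5 with lisinopril). For miR-214-3p the highest control was at 57.9 CPM and the lowest of the 9 irradiated rats at 63.6 CPM.

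After irradiation without the drug, the miR-199a strands did not differ detectably from control. miR-199a-5p was at 360 ± 17.4 CPM in control (SD, n = 4) and 358 ± 30.7 CPM in irradiated kidneys (SD, n = 4), and miR-199a-3p at 2081 ± 195 and 2064 ± 382 CPM. The log2 fold changes were -0.0085 (95% interval -0.24 to 0.23, adjusted p = 0.986) for miR-199a-5p and -0.012 (-0.29 to 0.26, adjusted p = 0.986) for miR-199a-3p. miR-214-3p was at 49.4 ± 6.41 CPM in control and 88.5 ± 39.9 CPM in irradiated kidneys. Its log2 fold change of 0.84 (SE 0.232, 95% interval 0.34 to 1.34) did not pass, with adjusted p = 0.0709, and all 4 irradiated rats were above all 4 controls. The exact permutation p, two-sided and on log2 CPM, was 0.0286, the smallest that 4 against 4 allows. Of all 419 miRNAs, 2.63% were higher without overlap in this comparison, 0.477% passed the test as higher and 1.19% as lower. Leaving out irradiated library 2 gave 0.48 (adjusted p = 0.138), and without irradiated library 4 it was 0.99 and passed (adjusted p = 0.0243). In that last fit 35 of 429 miRNAs were called higher and 25 lower, so that many calls were gained together.

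In lisinopril-treated irradiated kidneys, all 3 strands had means above control, and none passed the test. miR-199a-5p was at 454 ± 39.5 CPM (SD, n = 5), or 0.34 above control on the log2 scale (SE 0.105, 95% interval 0.11 to 0.56, adjusted p = 0.0744), and all 5 treated rats were above all 4 controls. miR-199a-3p was at 2492 ± 158 CPM, or 0.26 above control (95% interval -0.0015 to 0.52, adjusted p = 0.221). miR-214-3p was at 74.0 ± 6.78 CPM, or 0.58 above (SE 0.222, 95% interval 0.11 to 1.05, adjusted p = 0.127). Two-sided exact permutation tests gave p = 0.00794 for miR-199a-5p and for miR-214-3p, the smallest that 5 against 4 allows, and p = 0.0238 for miR-199a-3p. The share of all miRNAs that were higher without overlap was 5.97% here, while 0.716% passed the test as higher and 5.49% as lower. In a fit of only these 9 libraries both miR-199a-5p (adjusted p = 0.0444) and miR-214-3p (adjusted p = 0.0191) passed, among 17 of 407 miRNAs called higher.

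Between irradiated kidneys with and without lisinopril, both miR-199a strands had higher means with the drug and miR-214-3p did not. The log2 fold change was 0.35 for miR-199a-5p (SE 0.104, 95% interval 0.12 to 0.57, adjusted p = 0.165), with all 5 treated rats above all 4 untreated ones. Across all miRNAs 2.15% were higher without overlap, and 0% passed in either direction with edgeR, with 6.92% higher and 8.11% lower at an unadjusted p under 0.05. DESeq2 called 4 higher and 5 lower, and limma-voom 0 higher and 2 lower. An exact permutation test, two-sided, gave p = 0.00794 for miR-199a-5p, the smallest possible value for these group sizes. For miR-199a-3p the log2 fold change was 0.27 (95% interval 0.010 to 0.53, adjusted p = 0.307, exact permutation p = 0.0556). For miR-214-3p it was -0.26 (95% interval -0.72 to 0.20, adjusted p = 0.538), and 0.096 without irradiated library 2. Without irradiated library 4 both miR-199a strands passed, at log2 fold changes of 0.39 and 0.38 (adjusted p = 0.0386 for each), in a fit that called 20 of 429 miRNAs higher and 27 lower. With library totals in place of TMM the differences were 0.16 for miR-199a-5p, 0.097 for miR-199a-3p and -0.47 for miR-214-3p, where the median of all miRNAs moved from -0.023 to -0.21.

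With both irradiated groups averaged and set against control, miR-214-3p rose 1.64-fold and the miR-199a strands did not pass. This comparison reuses the same libraries and is not separate evidence. For miR-214-3p the log2 fold change was 0.71 (SE 0.204, 95% interval 0.28 to 1.15, adjusted p = 0.0456). All 9 irradiated rats were above all 4 controls, with a two-sided exact permutation p = 0.00140, the smallest that 9 against 4 allows. Among all 419 miRNAs, 1.91% were higher without overlap, 2.15% were called higher and 5.49% lower. The call lay close to the threshold. It was lost under 7 of 9 other choices of scaling, filter, tool or GC treatment, with adjusted p-values from 0.0541 to 0.0641. It was also lost without control library 1, 2 or 4 or lisinopril library 2, 3, 4 or 5 (adjusted p from 0.0610 to 0.153). It held without irradiated library 2 (log2 fold change 0.52, adjusted p = 0.0174), where 12 of 428 miRNAs were called higher. The log2 fold changes of the miR-199a strands were 0.16 (miR-199a-5p, adjusted p = 0.309) and 0.12 (miR-199a-3p, adjusted p = 0.544).

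**Figure D2:**
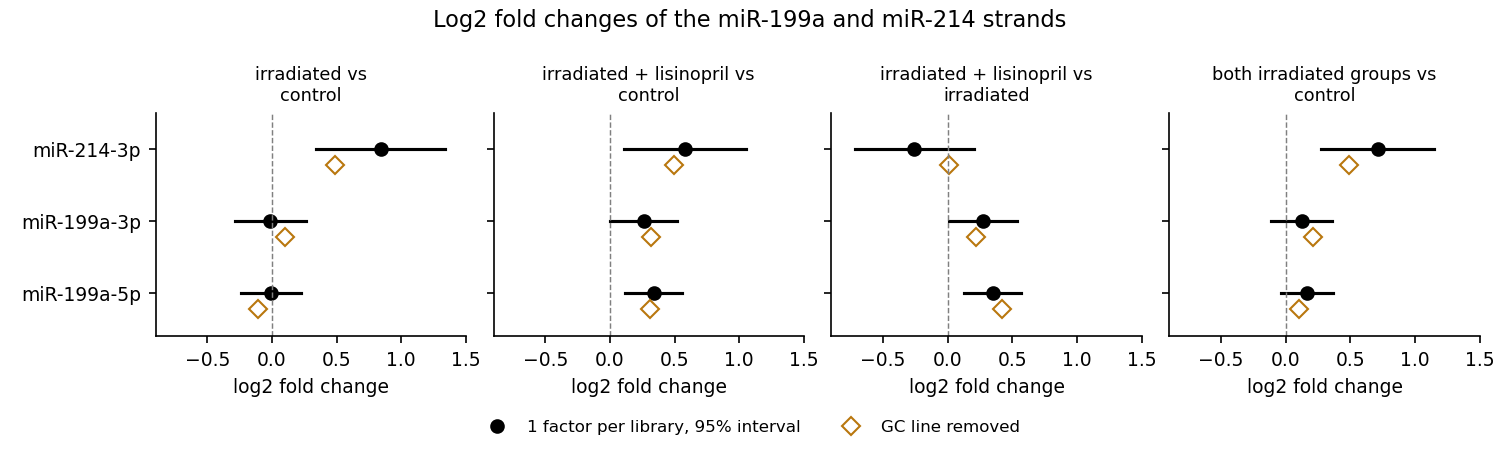
Log2 fold changes (x axes) of miR-199a-5p, miR-199a-3p and miR-214-3p in 4 comparisons, with 95% intervals from edgeR (filled points and bars) and the value with the GC trend of each library removed (open diamonds). For miR-214-3p the first comparison went from 0.84 to 0.49 with the trend removed, and the second from 0.58 to 0.50.

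The libraries differed in how levels followed the GC content of the mature sequence, which touches these strands unequally. Of the 419 tested miRNAs, 376 (89.7%) had a RefSeq sequence. Across these 376 miRNAs, which are not independent replicates, the deviation of log2 CPM from the mean of the 13 libraries correlated with GC content at r = 0.64 in irradiated library 2 and r = 0.42 in irradiated library 3. It was r = -0.37 in irradiated library 4 and r = -0.53 in control library 1, and it lay between -0.24 and 0.09 in the other 9 libraries. In irradiated library 2 the level rose by 0.36 on the log2 scale for each 10% of GC. That library held the highest miR-214-3p value and the lowest value of both miR-199a strands. For miR-199a-5p, at 52.2% GC, the deviation there was -0.25, whereas the straight line in GC content stood at 0.17. Taking that line off moved miR-199a-5p in irradiated library 2 from 330 to 293 CPM. Among the 25 tested miRNAs with a GC content of 60 to 64%, which include miR-214-3p, the median log2 fold change in irradiated against control kidneys was 0.46, and 1 (miR-702-3p) exceeded miR-214-3p.

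**Figure D3:**
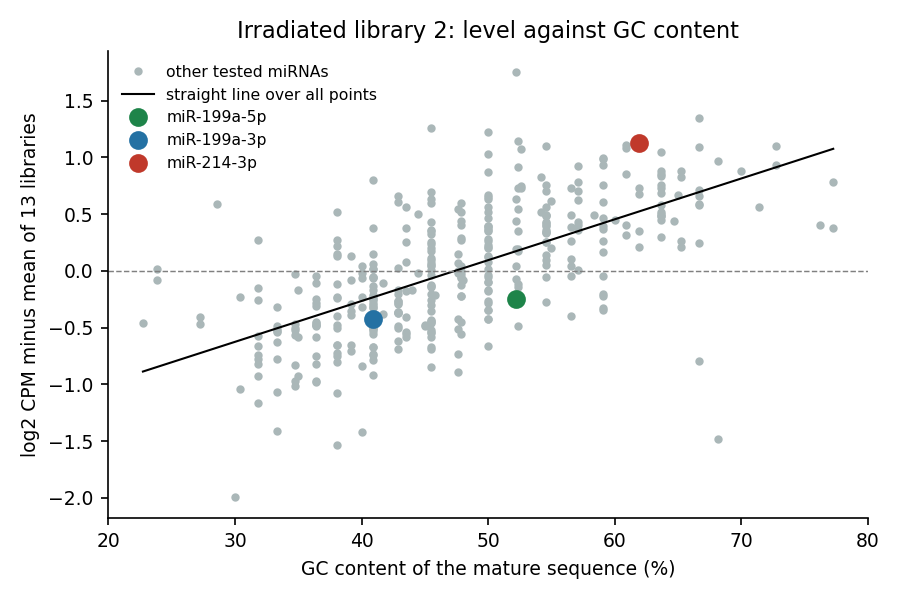
Log2 CPM in irradiated library 2 minus the mean of the 13 libraries (y axis) against GC content of the mature sequence in percent (x axis) for 376 tested miRNAs, with a straight line over all points. miR-214-3p, at 61.9% GC, lies at the upper right above the line, and miR-199a-3p, at 40.9% GC, lies below 0. miR-199a-5p, at 52.2% GC, lies at -0.25, where the line is above 0.

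When a straight line in GC content was taken off each library, a step chosen after the data were seen, all 9 irradiated rats still lay above all 4 controls for miR-214-3p, the difference was smaller and no comparison of that strand passed. The share of all miRNAs without overlap was not counted on this scale. The line was fitted without regard to group, so it also takes out any difference between groups that follows GC content. The controls then lay between 49.2 and 58.2 CPM, irradiated kidneys between 61.8 and 103 CPM and lisinopril kidneys between 60.9 and 83.0 CPM. Irradiated library 2 remained the highest. Group means were 54.1 ± 3.69 (SD, n = 4), 75.6 ± 19.3 (SD, n = 4) and 76.1 ± 8.84 CPM (SD, n = 5). The log2 fold change of miR-214-3p was 0.49 in irradiated against control (adjusted p = 0.150), 0.50 in lisinopril-treated against control (adjusted p = 0.0561) and 0.0090 between the irradiated groups (adjusted p = 0.984). With both irradiated groups averaged it was 0.49 (SE 0.143, adjusted p = 0.0634). For miR-199a-3p the lisinopril group then passed against control (log2 fold change 0.32, SE 0.0956, adjusted p = 0.0471), with means of 1998 ± 230 CPM in control and 2486 ± 81.6 CPM with lisinopril. That fit called 18 of 376 miRNAs higher, against 3 of 419 without the GC lines. For miR-199a-5p the same comparison gave 0.31 (adjusted p = 0.110).

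**Figure D4:**
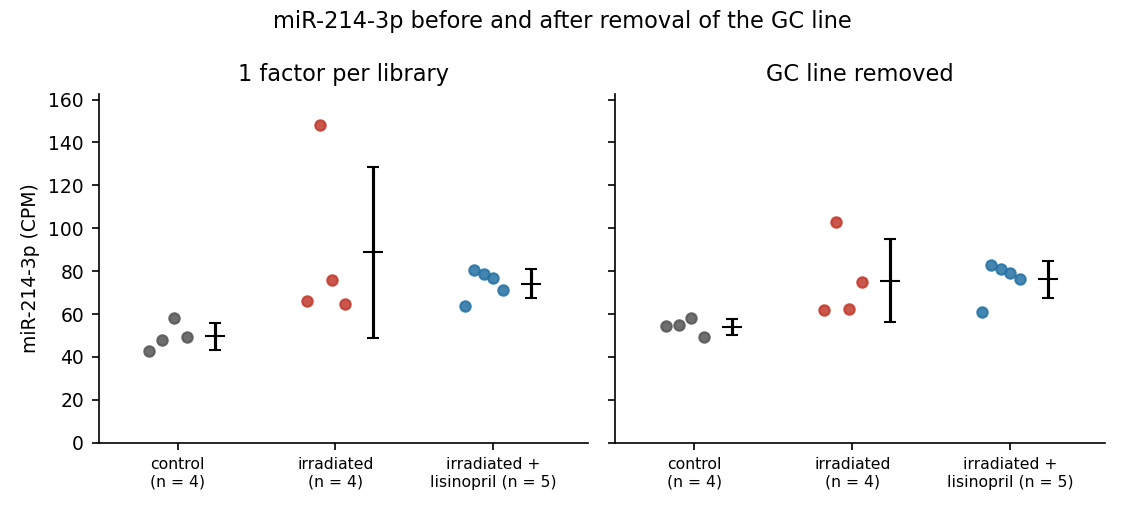
miR-214-3p in CPM (linear axis from 0) in each rat kidney, scaled with 1 factor per library (left) and with the GC line of each library removed (right), with the group mean ± SD. In both panels all 9 irradiated rats lie above all 4 controls, and irradiated library 2 goes from 148 to 103 CPM. The share of all miRNAs higher without overlap was 1.91% on the left scale and was not counted on the right.

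Ratios of read counts within a library do not depend on how libraries are scaled. miR-199a-3p was read 4.86 to 6.40 times as often as miR-199a-5p. The ratio was 5.78 ± 0.403 in control (SD, n = 4), 5.74 ± 0.629 in irradiated (SD, n = 4) and 5.50 ± 0.402 in lisinopril kidneys (SD, n = 5). The log2 ratio of the miR-199a strands differed by -0.014 between irradiated and control kidneys, -0.072 between lisinopril and control and -0.058 between the irradiated groups. None of these passed in exact permutation tests (two-sided adjusted p = 0.914, 0.459 and 0.598, adjusted over 9 ratio comparisons). For each read of miR-199a-5p there was 0.138 ± 0.0242 of a read of miR-214-3p in control, 0.253 ± 0.132 in irradiated and 0.163 ± 0.0162 in lisinopril kidneys. The log2 ratio of miR-214-3p to miR-199a-5p was 0.77 higher in irradiated than in control kidneys (SE 0.349), with 3 of 4 irradiated rats above all controls and an exact permutation p = 0.0571 (adjusted p = 0.157). It was 0.25 higher in lisinopril kidneys than in control (exact permutation p = 0.0873, adjusted p = 0.157) and 0.52 lower than in irradiated kidneys without the drug (difference -0.52, exact permutation p = 0.0397, adjusted p = 0.157). Against miR-199a-3p the corresponding differences were 0.78, 0.32 and -0.46, with adjusted exact permutation p-values of 0.157, 0.157 and 0.357. Without irradiated library 2 the log2 ratio of miR-214-3p to miR-199a-5p was 0.46 higher in irradiated than in control kidneys and 0.20 lower in lisinopril than in irradiated kidneys (difference -0.20). The ratio to miR-199a-3p then differed by 0.40 and -0.079. With the GC lines removed, the differences in the order above were 0.57, 0.18 and -0.39 for the ratio to miR-199a-5p and 0.36, 0.17 and -0.19 for the ratio to miR-199a-3p, and none passed (adjusted exact permutation p from 0.119 to 0.554).

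**Figure D5:**
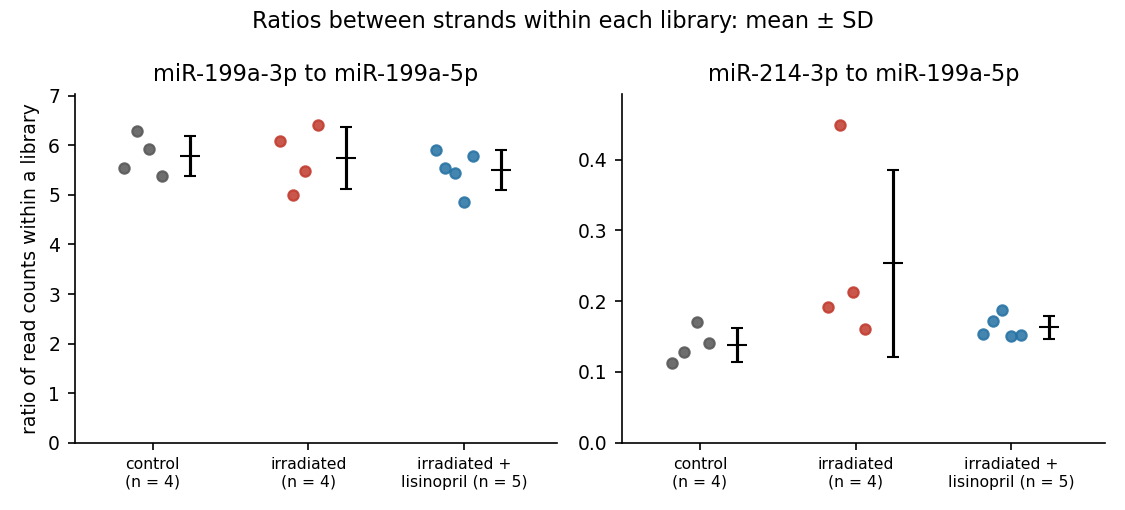
Ratio of read counts within each library (linear axes from 0) for miR-199a-3p to miR-199a-5p (left) and miR-214-3p to miR-199a-5p (right), with the group mean ± SD. The left ratio stays between 4.86 and 6.40 in all 13 kidneys, and irradiated library 2 stands at 0.448 on the right.

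Over the 13 libraries, the strands of the miR-199a hairpin varied together. Their log2 CPM correlated at r = 0.83 and rho = 0.84 (permutation p = 0.00041 and 0.00054, adjusted over 6 relations 0.00246 and 0.00324), and at r = 0.87 without lisinopril libraries 2 and 4. The permutations moved libraries freely between groups, so group differences shared by the strands are part of these values. No correlation of miR-214-3p with either strand passed. It was r = 0.053 with miR-199a-5p (rho = 0.25, permutation p = 0.865 and 0.406) and r = -0.24 with miR-199a-3p (rho = 0.13, permutation p = 0.439 and 0.668). The last value became r = 0.31 without irradiated library 2 and control library 4. As deviations from the group mean, a scale given here as a description, miR-214-3p and miR-199a-3p went in opposite directions (r = -0.70, rho = -0.52). On that scale the miR-199a strands were at r = 0.70 and rho = 0.67, and miR-214-3p and miR-199a-5p at r = -0.38 and rho = -0.29. With the GC lines removed, the strands of miR-199a correlated at r = 0.78 (adjusted permutation p = 0.00759) and miR-214-3p correlated at r = 0.20 and 0.42 with miR-199a-5p and miR-199a-3p (adjusted permutation p = 0.624 and 0.296). Neither value was stable, since the first became r = 0.69 without irradiated library 2 and lisinopril library 4 and the second r = 0.11 without control libraries 1 and 4. Library scaling is shared by all these values. The group differences are shared by all but the deviations from the group mean. Base composition is shared too, except for its straight-line part where the GC lines were removed.

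The miRNAs whose log2 CPM most resembled each strand over the 13 libraries were picked as the highest Pearson r among the 281 or 282 other miRNAs averaging 10 CPM or more, so the values are descriptions. For miR-199a-5p they were miR-30d-3p (r = 0.90, rho = 0.91), miR-322-5p (r = 0.82, rho = 0.91) and miR-196a-5p (r = 0.81, rho = 0.75). For miR-199a-3p they were miR-3596d (r = 0.89, rho = 0.84), miR-9a-5p (r = 0.88, rho = 0.92) and miR-30d-3p (r = 0.86, rho = 0.83). For miR-214-3p they were miR-139-5p (r = 0.95, rho = 0.88), miR-652-3p (r = 0.93, rho = 0.88) and miR-345-5p (r = 0.91, rho = 0.86), and without irradiated library 2 and control library 1 these became r = 0.85, 0.88 and 0.74. miR-139-5p, whose mature sequence is 54.5% GC, was at 104 ± 11.9 CPM in control (SD, n = 4), 153 ± 44.7 CPM in irradiated (SD, n = 4) and 138 ± 18.9 CPM in lisinopril kidneys (SD, n = 5). As deviations from the group mean, the nearest to miR-199a-5p were miR-145-3p (r = 0.84, rho = 0.85), miR-141-3p (r = 0.79, rho = 0.76) and miR-27b-3p (r = 0.77, rho = 0.68). Without irradiated library 4 and lisinopril library 4 these became r = 0.77, 0.75 and 0.69. On that scale the nearest to miR-199a-3p were miR-3596d (r = 0.89, rho = 0.60), let-7f-5p (r = 0.88, rho = 0.60) and miR-872-5p (r = 0.84, rho = 0.69). They fell to r = 0.65, 0.62 and 0.47 without irradiated libraries 2 and 4. The nearest to miR-214-3p were miR-139-5p (r = 0.90, rho = 0.82), let-7b-3p (r = 0.90, rho = 0.76) and miR-378a-5p (r = 0.88, rho = 0.85). Without irradiated libraries 2 and 4 these became r = 0.74, 0.65 and 0.70. GC content was 50 to 61.9% in the miRNAs named here for miR-214-3p. Leaving miR-30d-3p aside, it was 31.8 to 38.1% in those for miR-199a-3p and 40.9 to 47.6% in those for miR-199a-5p. Likeness was not computed with the GC lines removed, and the part of GC content in it was not tested.

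The opposite-strand miR-3120 passed the test in none of the comparisons. It was at 4.13 ± 0.397 CPM in control (SD, n = 4), 4.25 ± 1.72 CPM in irradiated (SD, n = 4) and 5.71 ± 0.924 CPM in lisinopril kidneys (SD, n = 5). Its log2 fold changes were 0.060 (adjusted p = 0.921) after irradiation, 0.48 (adjusted p = 0.277) in lisinopril-treated against control and 0.42 (adjusted p = 0.407) between the irradiated groups. Among rows named after other species, the cattle and catfish entry bta-miR-3604#ipu-miR-199b held 97.0% to 104% of the count of miR-199a-3p in each library, and whether these are the same reads was not tested. The mouse and hamster entry for miR-199b-5p held 0 to 25 reads, at most 0.56% of miR-199a-5p. miR-199b-3p has the same sequence as miR-199a-3p in mammals, and a further copy of miR-199a exists in mouse and human, so that the counts cannot be assigned to a single transcript.

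Other miRNAs of stromal cells and fibrosis, in 4 lists, had no member called in any of the 4 comparisons. Few miRNAs were called after irradiation (0.477% higher and 1.19% lower) and 0% between the irradiated groups, so that a count of 0 in a short list is near the background there. The shares were 0.716% higher and 5.49% lower in lisinopril-treated against control kidneys. With both irradiated groups averaged they were 2.15% higher and 5.49% lower. The lists were not tested against these shares. None of the 7 tested fibroblast and mesenchymal miRNAs outside the Dnm3os transcript passed. After irradiation 1 of the 7 had a positive log2 fold change, against 51.8% of all 419, and the median was -0.20 against 0.020. The smallest p-values belonged to miR-140-3p (0.53, adjusted p = 0.105) and miR-140-5p (-1.21, adjusted p = 0.143), of which the latter ranged from 51.9 to 370 CPM among the controls alone. None of the 5 tested smooth muscle and pericyte miRNAs passed, 3 being positive after irradiation with a median of 0.023. The smallest p-values were those of miR-145-3p (-0.48, adjusted p = 0.143) and miR-145-5p (0.16, adjusted p = 0.703). Of these, miR-145-3p was at 75.4 ± 14.8 CPM in control, 53.5 ± 12.7 CPM in irradiated and 79.0 ± 12.5 CPM in lisinopril kidneys. None of the 6 other pro-fibrotic miRNAs passed (2 positive after irradiation, median -0.29), the smallest p-values being those of miR-192-5p (-0.56, adjusted p = 0.134) and the injury-induced miR-21-5p (-0.60, 0.143). Of 13 anti-fibrotic miRNAs of the miR-29, miR-200 and miR-30 families none passed, 4 being positive after irradiation with a median of -0.12, and miR-30e-5p (-0.40, adjusted p = 0.143) and miR-30a-5p (-0.41, adjusted p = 0.143) had the smallest p-values. Both miR-192-5p and miR-30a-5p are also counted among the kidney epithelial miRNAs, so the lists are not separate.

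Between the irradiated groups the medians with lisinopril were -0.023 for fibroblast and mesenchymal, 0.21 for smooth muscle and pericyte, 0.28 for other pro-fibrotic and -0.066 for anti-fibrotic miRNAs, against -0.023 over all miRNAs. Positive values were held by 3 of 7, 3 of 5, 5 of 6 and 4 of 13 members, against 46.5% of all miRNAs. In that comparison the fibroblast list held both miR-10b-5p at 0.47 (adjusted p = 0.261) and miR-140-3p at -0.41 (adjusted p = 0.286). The smooth muscle list held miR-145-3p at 0.56 (adjusted p = 0.206) and miR-143-3p at 0.21 (adjusted p = 0.565), whereas miR-145-5p was at -0.14 and miR-133a-3p at -0.11.

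Markers of other cell types moved beside miR-214-3p as follows, and their part in its difference was not tested. Of 6 leukocyte miRNAs, 2 were called lower with both irradiated groups averaged, against 5.49% of all miRNAs. They were miR-223-3p of neutrophils (-0.48, adjusted p = 0.0375) and miR-146a-5p (-0.76, adjusted p = 0.0433). Their GC content was 42.9% and 40.9%. Over the 376 miRNAs with a sequence, the log2 fold change of that comparison rose by 0.12 for each 10% of GC. Its median was -0.029 among 64 miRNAs of 39 to 43% GC. These 2 calls were not examined under other settings or with the GC lines removed. In either irradiated group alone against control, 0 of the 6 were called. Of all miRNAs, 0.477% were called higher and 1.19% lower without the drug, and 0.716% and 5.49% with lisinopril. With both groups averaged 5 of the leukocyte miRNAs were negative and 1 positive (median -0.45 against 0.035 over all miRNAs). The mean of miR-150-5p was higher than in control (478 ± 172 CPM) in irradiated (757 ± 285 CPM) and lisinopril kidneys (617 ± 336 CPM). The list summed to 1818 to 2274 CPM in control, 1630 to 1921 CPM in irradiated and 1290 to 1780 CPM in lisinopril kidneys. None of the 4 endothelial miRNAs passed, and their sums of 12193 to 15129, 9335 to 14599 and 10672 to 16181 CPM overlapped. After irradiation miR-221-3p (0.31, adjusted p = 0.188) and miR-126a-3p (-0.21, adjusted p = 0.285) had the smallest p-values of that list. None of the 4 erythroid miRNAs passed, with sums of 918 to 2103, 790 to 4229 and 674 to 3491 CPM, and 1 was at 0 in some library. Most of each sum was miR-486, which averaged 1423 CPM in control. All 4 had a positive log2 fold change after irradiation (median 0.53 against 0.020 over all miRNAs). The same held in lisinopril-treated against control kidneys for these 4 erythroid miRNAs (median 0.50 against 0.050). Their smallest p-values after irradiation were those of miR-486 (0.51, adjusted p = 0.559) and miR-144-3p (0.63, adjusted p = 0.781). None of the 6 kidney epithelial miRNAs passed, with miR-10a-5p at -0.54 after irradiation (adjusted p = 0.0931) and with medians of -0.36 after irradiation and 0.36 between the irradiated groups. After irradiation 1 of the 6 was positive, against 51.8% of all miRNAs. Between the irradiated groups all 6 were positive with lisinopril, against 46.5% of all miRNAs.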

How the data were processed

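Small RNA libraries were made from 1 µg of total kidney RNA with a TruSeq kit, per the labels' protocols. Tools and build were Trim Galore 0.2.5, Bowtie 1.1.1 and rn4, per the submitters' processing notes. The counting method and the handling of multiple hits are not given in the sources used here. Whole-number read counts per library were deposited by the authors for 1121 features, of which the 460 rat mature miRNAs were used. With edgeR 4.0.16 in R 4.3.3, filterByExpr by group kept 419 miRNAs, TMM factors lay between 0.787 and 1.19, and glmQLFit took the 3 groups as terms over the 13 libraries together. Log2 CPM adds a prior count of 2. Standard errors and intervals come from this fit. Permutation tests were two-sided and exact over all arrangements for group differences, and used 100000 resamples for correlations. The fit was tested on simulated counts.

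The named miRNAs were the 3 strands, other products of their hairpins, the 2 smallest p-values of each of 8 lists (fibroblast and mesenchymal, smooth muscle and pericyte, pro-fibrotic, anti-fibrotic, kidney epithelial, leukocyte, endothelial and erythroid) and the 3 nearest miRNAs by correlation. For the lists the examples are mainly from irradiated against control kidneys. Members and lists were chosen with earlier results of these data known. The labels describe separate rats and give no batch. Alternatives were RLE, library totals with and without the most abundant miRNA, other filters, DESeq2 1.42.0, limma-voom (limma 3.58.1), fits of only the groups compared and leaving out each library. The GC fit and the fit with other-species miRNAs were added after the data were seen.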

Additional observations from a re-analysis of the deposited data

Results flagged for a closer look

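In irradiated library 2, miR-214-3p reached 148 CPM, whereas the remaining 3 irradiated libraries without the drug held 64.5 to 75.8 CPM, a gap larger than the spread of a group of 4 usually allows. It was the only such value among 21 groups of values examined, and chance marks about 5% of groups. With the GC line removed that library was at 103 CPM.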

How the results depend on the processing

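The call of miR-214-3p with both irradiated groups averaged was lost with RLE (log2 fold change 0.70), library totals (0.86), totals without the most abundant miRNA (0.80), no filter (0.73), a mean of at least 10 CPM (0.68), limma-voom (0.67) and the GC line removed (0.49), and held with DESeq2 and with other-species miRNAs. Those last 2 fits called 11 of 416 and 13 of 572 miRNAs higher. Leaving out single libraries gave 0.52 to 0.80 for miR-214-3p with both irradiated groups averaged. miR-214-3p in irradiated against control kidneys passed with DESeq2 (0.84), which called 11 of 407 miRNAs higher and 13 lower there, and leaving out libraries gave 0.48 to 0.99. In lisinopril-treated against control kidneys miR-214-3p passed in the fit of only those libraries (0.59), and so did miR-199a-5p there (0.35), with totals without the most abundant miRNA (0.39), DESeq2 (0.32) and other-species miRNAs (0.41). In that order, these fits called 17 of 407, 6 of 414, 6 of 416 and 10 of 572 miRNAs higher. miR-199a-3p passed with the GC line removed (0.32). Between the irradiated groups, leaving out libraries gave 0.28 to 0.40 for miR-199a-5p, 0.16 to 0.38 for miR-199a-3p and -0.42 to 0.096 for miR-214-3p. Library totals gave 0.16, 0.097 and -0.47 for these. miR-214-3p was at 0.0090 with the GC line removed.

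The near-zero differences of the miR-199a strands after irradiation changed sign without passing. miR-199a-5p was at 0.24 with library totals, 0.12 without the most abundant miRNA, 0.0029 without a filter and 0.027 with other-species miRNAs. miR-199a-3p was at 0.24, 0.11 and 0.028 under the first, second and last of these and 0.098 with the GC line removed. Library totals moved the median of all miRNAs in that comparison from 0.020 to 0.26. Leaving out libraries gave -0.052 to 0.040 for miR-199a-5p and -0.12 to 0.088 for miR-199a-3p. The log2 ratio of the miR-199a strands became 0.22 after irradiation and 0.013 with lisinopril against control with the GC line removed, and ranged from -0.069 to 0.051 after irradiation when libraries were left out. Except for the GC line's effect by construction, the cause was not tested. No paired analysis was possible because the labels give no number shared between groups. Control library 2, with 45 reads of miR-214-3p, limits the precision of that strand.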
